A study of Mus musculus with 16 samples.

Results

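The C/EBP family, the CCAAT/enhancer binding proteins, was followed at the transcript level in progenitors of mouse bone marrow. The 7 members were fixed by name as Cebpa, Cebpb, Cebpd, Cebpe, Cebpg, Cebpz and Ddit3, and all 7 were found among the 47937 genes of the count tables. The question was which members differ between populations and genotypes, and whether the other members move with Cebpa. Bulk RNA-seq had been done on MPP3 and MPP4 cells sorted from C57BL/6 mice, which gave 16 libraries in 4 groups of 4. Both populations were taken to come from the same 8 mice, matched by genotype, number, sex and age. MPP3 and MPP4 are multipotent progenitors biased toward myeloid and lymphoid output, respectively, both sorted as lineage-negative Sca-1+ Kit+ cells lacking CD150 and carrying CD48, with Flt3 on MPP4. By the sample labels, the WT mice were Ebf1fl/fl Tie2Cre+/+, floxed at Ebf1 without a Cre allele, and the KO mice were Ebf1fl/fl Tie2Cre +/cre. The description of the series instead gives Tie2Cre to both genotypes and unfloxed Ebf1 to WT, so alleles and transgene cannot be told apart as the difference between the groups. Tie2Cre is driven by the promoter of Tek and acts in endothelial and blood-forming cells alike, so a KO mouse is not a model of loss in progenitors alone. The age of WT mice 1 to 4 was 12, 11, 12 and 11 weeks and that of KO mice 1 to 4 was 10, 9, 11 and 11 weeks. WT mice 1 and 2 were female and 3 and 4 male, with the reverse in KO.

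C/EBP proteins bind DNA as dimers through a basic region and a leucine zipper (bZIP). C/EBPα, from Cebpa, starts the granulocyte and monocyte program in progenitors, C/EBPε, from Cebpe, acts later in granulocytes, and C/EBPβ and C/EBPδ, from Cebpb and Cebpd, are raised by cytokines and inflammation and can take over some tasks of C/EBPα. C/EBPγ, from Cebpg, lacks an activating domain and serves as a partner of other bZIP factors, CHOP, from Ddit3, is a partner induced by the integrated stress response, and the product of Cebpz is a nucleolar protein without a leucine zipper that carries the family name only.

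The genes lie, on GRCm38 by GENCODE, at chr7:35119293-35121928 on the plus strand for Cebpa, chr2:167688915-167690418 plus for Cebpb, chr16:15887286-15891031 plus for Cebpd, chr14:54710360-54712174 minus for Cebpe, chr7:35046422-35056573 minus for Cebpg, chr17:78919006-78937066 minus for Cebpz and chr10:127290774-127296288 plus for Ddit3. The summed exon length ran from 1241 bases for Cebpe to 5621 bases for Cebpg.

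Libraries held between 24823708 and 48703193 counts, and each member passed the filter of a mean above 100 counts in at least 1 group, Cebpe through its MPP3 groups alone. Levels are given as CPM, a count over the library's total after TMM scaling. Of the sort gates, Kit was at 381 to 838 CPM in all libraries, and Flt3 was at 204 to 313 CPM in MPP3 libraries and at 938 to 1362 CPM in MPP4 libraries. Ebf1, the targeted gene, lay at 3.32 to 6.19 CPM in MPP4 libraries labelled WT and at 17.6 to 24.9 CPM in those labelled KO, so in MPP4 the transcript was higher in each library labelled KO (log2 fold change 2.22 ± 0.64, edgeR FDR 0.188), while in MPP3 it was between 0.150 and 2.23 CPM without separation. Counts per gene do not part intact from recombined transcripts, so WT and KO stand throughout for libraries labelled so, and any direction given for KO relies on these names. The libraries of a group are from separate mice by their labels, while each mouse gave an MPP3 and an MPP4 library. The edgeR p-values rest on a spread pooled over the groups. Unless a mouse block is named, they treat both libraries of a mouse as independent. The labels name no batch or date, so no value within batches could be given. In bulk libraries, fewer cells with a transcript and less transcript per cell cannot be told apart.

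The stretches before the transcription starts of Cebpa, Cebpb and Cebpg are shown because Cebpb was the member that followed Cebpa most closely from mouse to mouse, while Cebpg, the nearest coding neighbour of Cebpa on chromosome 7, did not. Each is the 250 bases before the start, 5′ to 3′ on the strand of the gene, from RefSeq on GRCm38.p6, and capitals mark matches to the motifs searched. Cebpa lies at chr7:35119043-35119292 on the plus strand, Cebpb at chr2:167688665-167688914 on the plus strand and Cebpg at chr7:35056567-35056816 on the minus strand.
Cebpa: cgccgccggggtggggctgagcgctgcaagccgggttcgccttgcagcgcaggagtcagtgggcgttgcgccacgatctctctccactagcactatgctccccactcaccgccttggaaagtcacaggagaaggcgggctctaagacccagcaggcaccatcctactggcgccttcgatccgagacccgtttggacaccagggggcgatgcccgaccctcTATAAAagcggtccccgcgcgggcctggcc
Cebpb: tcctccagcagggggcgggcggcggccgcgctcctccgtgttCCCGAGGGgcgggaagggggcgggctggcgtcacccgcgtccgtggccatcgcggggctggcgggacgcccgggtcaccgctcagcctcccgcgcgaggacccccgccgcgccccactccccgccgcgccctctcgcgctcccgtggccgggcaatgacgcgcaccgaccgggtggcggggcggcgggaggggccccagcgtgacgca
Cebpg: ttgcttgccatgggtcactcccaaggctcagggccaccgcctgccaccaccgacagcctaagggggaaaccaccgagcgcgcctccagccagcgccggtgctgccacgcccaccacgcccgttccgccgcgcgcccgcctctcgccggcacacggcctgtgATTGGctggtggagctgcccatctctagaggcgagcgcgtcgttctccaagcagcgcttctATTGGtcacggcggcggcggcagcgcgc

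The motifs searched on both strands were the C/EBP half-site pair TTGCNNAA, the C/EBP-ATF element TGATGCAA, the cAMP response element TGACGTCA, the CCAAT box CCAAT, the TATA box TATAAA and CCCNNGGG, the core of the site read by EBF1. The stretch of Cebpa held a TATA box beginning 30 bases before the start, a motif found in 12.4% of the 32817 stretches of the same length in the table. That of Cebpb, with a GC content of 81.6%, held 1 EBF1 core, 208 bases before the start, against 11.8% of all stretches. Cebpg had 2 CCAAT boxes on the opposite strand and Ddit3, at chr10:127290543-127290792 on the plus strand, had 1, against 33.8% of all stretches. None of the 4 stretches held the C/EBP half-site pair (9.57% of all), the C/EBP-ATF element (0.792%) or the cAMP response element (1.55%). A match describes letters, not a bound site, and no match says only that these letters are not in this window. Cebpd, Cebpe and Cebpz were not examined in this way.

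Compared per kilobase of exon, Cebpz had the highest level of the family in 3 of the 4 groups, at 20.9 ± 0.993 CPM per kb in MPP3 WT, 20.4 ± 1.17 in MPP4 WT and 19.5 ± 2.82 in MPP4 KO (SD, n = 4). In MPP3 KO the highest mean was that of Cebpe, 19.7 ± 9.52 CPM per kb, whose libraries overlapped those of Cebpz at 18.2 ± 0.918. In MPP3 WT, Cebpe at 10.7 ± 2.85 and Ddit3 at 10.6 ± 2.37 CPM per kb came next and overlapped, and in MPP4 WT Ddit3 came next at 10.5 ± 1.48. Cebpa stood at 6.77 ± 2.71 CPM per kb in MPP3 WT and at 6.70 ± 3.44 in MPP4 WT, and Cebpg at 7.80 ± 1.35 and 6.29 ± 0.443, so that Cebpa and Cebpg could not be ordered in either group. Cebpd and Cebpb were lowest in MPP3 WT, at 4.48 ± 1.23 and 2.88 ± 2.56 CPM per kb, and overlapped each other. In both MPP4 groups the last place belonged to Cebpe, at 0.900 ± 0.12 CPM per kb in WT and 1.17 ± 0.434 in KO, below all libraries of the next member, Cebpd.

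**Figure D1:**
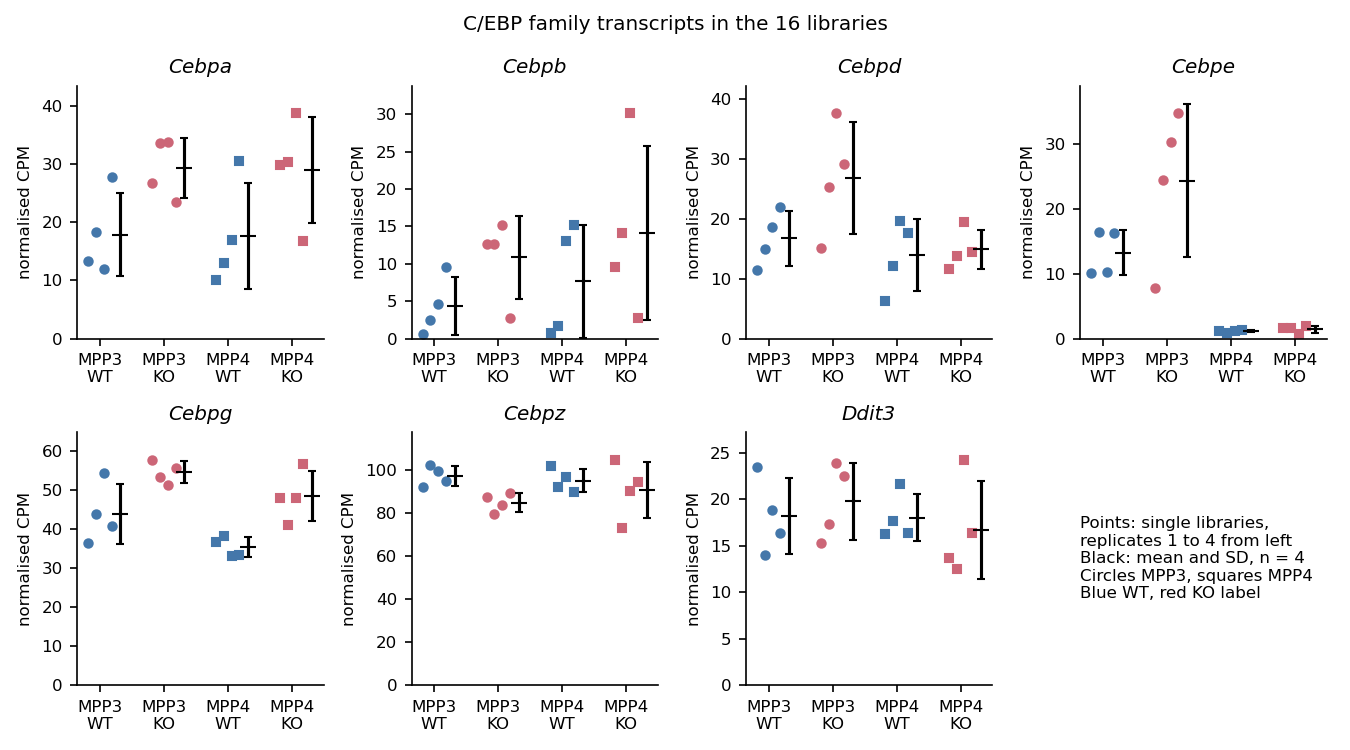
Normalised CPM of each of the 7 members (1 panel each, linear axis from 0) in the 16 libraries, with points for single libraries, circles for MPP3, squares for MPP4, blue for WT, red for KO, and the mean and SD of 4 libraries in black. Cebpe lies between 7.82 and 34.9 CPM in MPP3 and below 2 CPM in all MPP4 libraries, while Cebpb spans at least 5.47-fold from the lowest to the highest library of each group.

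The comparison of MPP3 with MPP4 asked which members mark the myeloid-biased population. Cebpe was higher in MPP3 in both genotypes, and Cebpa was called in neither. In the WT libraries, edgeR called 1 of the 7 members at a false discovery rate (FDR, Benjamini-Hochberg over the 11831 genes tested) under 0.1, against 15.1% of all genes, and in the KO libraries 2 of 7, against 17.9%. The libraries of 1 mouse deviated from their group means together, and with the mouse as a block the counts were 2 of 7 in WT, with 24.8% of all genes called, and 2 of 7 in KO, with 28.3%. The median log2 fold change of the 7 members was 0.03 in WT and 0.17 in KO, beside a median over all genes of -0.0004 in WT and -0.01 in KO.

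Cebpe had 10.2, 16.4, 10.2 and 16.3 CPM in MPP3 of the WT mice and 1.09, 0.914, 1.20 and 1.27 CPM in their MPP4 libraries. In KO it had 7.82, 24.6, 30.3 and 34.9 CPM in MPP3 and 1.59, 1.66, 0.667 and 1.89 CPM in MPP4. Every MPP3 library lay above every MPP4 library, with the KO library of mouse 1 the lowest of MPP3. The log2 fold change of MPP3 over MPP4 was 3.56 ± 0.40 (SE) in WT, 11.8-fold (edgeR FDR 1.4e-05), and 4.05 ± 0.41 in KO, 16.6-fold (FDR 3.58e-06). Over the 10 alternatives that kept the libraries or left out WT mouse 1, among them a test of all genes with at least 1 count, the FDR was no higher than 0.000137 in WT and 0.000168 in KO. Groups without overlap, higher in MPP3, were seen for Cebpe alone among the members in either genotype, and for 7.6% of all genes in WT and 8.6% in KO.

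Genes whose levels over the 16 libraries were most like those of Cebpe were Fcgr3 (Pearson r 0.974), an Fc receptor of myeloid cells, Rnf125 (0.967), a ubiquitin ligase, Gzmb (0.966), a granzyme, Ms4a3 (0.963), a marker of granulocyte-monocyte progenitors, and Cpa3 (0.960), a protease of mast cells and basophils. These r values describe libraries that share mice and 2 populations, between which Cebpe itself differed. Markers of mast cells and basophils were also higher in MPP3 as a sum, but no r of the sum with Cebpe was computed. The 6 genes summed to 199 to 404 CPM over the MPP3 libraries and to 24.9 to 57.4 CPM over the MPP4 libraries. Cpa3, chosen above by its r, was the largest part in MPP3, with medians of 208 CPM in WT and 216 CPM in KO. Of the 5 tested, 4 were called higher in MPP3 in each genotype, Cma1 and Ms4a2 having passed the filter through MPP3 groups alone. Prss34 was called in neither genotype. Its groups overlapped in WT, at 3.16 to 57.9 CPM in MPP3 and 1.41 to 21.4 CPM in MPP4, but not in KO. Cma1, a mast cell chymase, had no count in any MPP4 library and 30 to 289 counts in MPP3. The 5 eosinophil markers together ran from 27.1 to 65.4 CPM in MPP3 and from 4.37 to 11.5 CPM in MPP4, and the 6 markers of mature neutrophils from 9.24 to 75.1 CPM and from 1.48 to 13.4 CPM, with Retnlg, which marks the ripest of these cells, at no more than 12 counts anywhere. The part of these markers in the level of Cebpe was not tested. Slc7a8, the next coding gene beyond Cebpe on chromosome 14, encodes an amino acid transporter and was also higher in MPP3, with a log2 fold change of 4.11 ± 0.30 in WT (edgeR FDR 1.09e-07) and 3.29 ± 0.29 in KO (FDR 7.96e-07).

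Cebpa did not separate the populations. It had 13.3, 18.4, 12.0 and 27.8 CPM in MPP3 WT and 10.1, 13.0, 17.0 and 30.6 CPM in MPP4 WT. In KO it had 26.8, 33.7, 33.8 and 23.5 CPM in MPP3 and 29.9, 30.4, 38.8 and 16.7 CPM in MPP4. The groups overlapped in both genotypes, and the log2 difference of MPP3 and MPP4 was 0.01 in WT (95% interval -0.68 to 0.71, edgeR FDR 0.991) and 0.02 in KO (-0.67 to 0.72, FDR 0.980). The intervals take in differences of either sign.

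Cebpd was called in KO alone. It had 15.2, 25.4, 37.7 and 29.1 CPM in MPP3 KO and 11.7, 13.8, 19.5 and 14.5 CPM in MPP4 KO, so that the libraries of every mouse differed in the same direction although the groups overlapped. MPP3 exceeded MPP4 by 0.85 ± 0.32 on the log2 scale (edgeR FDR 0.0949, and 0.00182 with the mouse as a block). The FDR ran from 0.0400 to 0.270 when 1 library was left out and was above 0.1 for 10 of the 16 libraries, 6 of them of the KO groups compared, being highest without the MPP3 library of KO mouse 3, where the log2 fold change was 0.64. In WT, Cebpd had 11.4, 14.9, 18.7 and 22.0 CPM in MPP3 and 6.35, 12.1, 19.6 and 17.6 CPM in MPP4 (log2 fold change 0.27 ± 0.32, FDR 0.708). That the step is particular to KO is not shown, since the difference between genotypes was not called (log2 0.58 ± 0.45, edgeR interaction FDR 1).

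Cebpg had 36.5, 43.8, 54.3 and 40.7 CPM in MPP3 WT and 36.6, 38.2, 33.2 and 33.4 CPM in MPP4 WT. The step in WT was 0.31 ± 0.12 on the log2 scale (edgeR FDR 0.115), which passed the threshold with the mouse as a block (0.30, FDR 0.0796), with DESeq2 (FDR 0.0896) and without the MPP3 library of WT mouse 1 (0.39, FDR 0.0475), but fell to 0.19 (FDR 0.377) without that of WT mouse 3. Over the alternatives that kept the libraries its FDR was as high as 0.227, with all genes of at least 1 count. In KO its log2 difference was 0.17 ± 0.12 (FDR 0.423). Cebpb, Cebpz and Ddit3 were not called between the populations in either genotype, with log2 differences of -0.82 ± 0.89, 0.03 ± 0.09 and 0.01 ± 0.21 in WT and -0.38 ± 0.88, -0.10 ± 0.09 and 0.24 ± 0.21 in KO. With 1 library left out, the difference of Cebpb in WT ran from -1.56, without the MPP3 library of WT mouse 4, to -0.25, without the MPP4 library of that mouse.

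**Figure D2:**
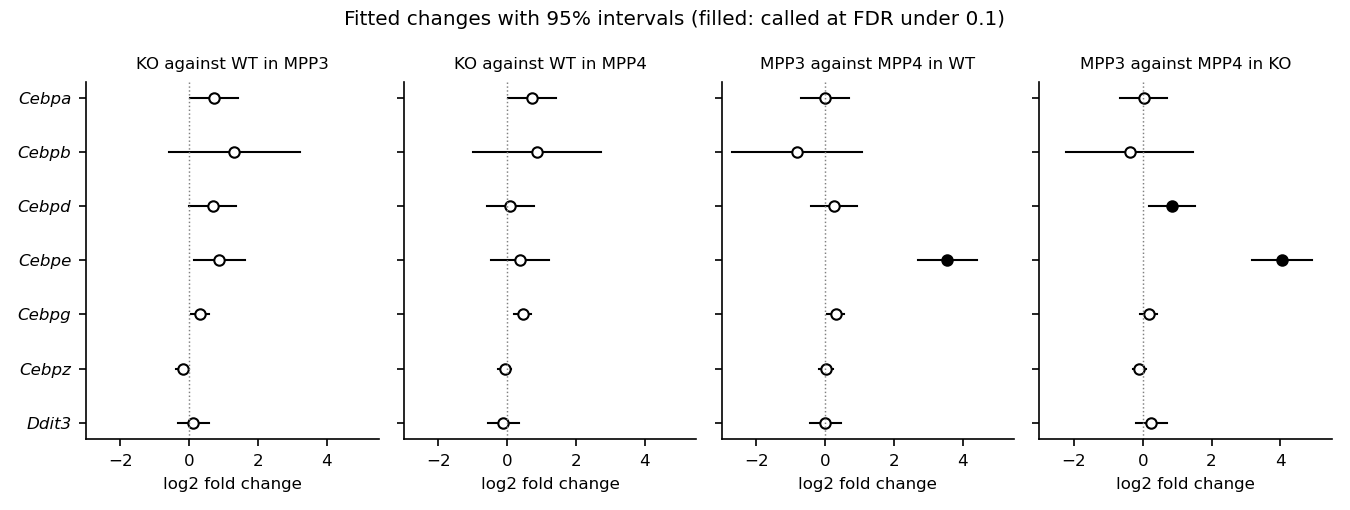
Log2 fold change of each member in 4 comparisons (1 panel each), with lines for 95% intervals of the edgeR fit and filled points for members called at an FDR under 0.1. Cebpe at 3.56 and 4.05 and Cebpd at 0.85 are the filled points, all in MPP3 against MPP4, and no point is filled in KO against WT.

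The comparison of KO with WT asked whether Cebpa, and the family with it, changed where Ebf1 was targeted. In MPP3, edgeR called none of the 7 members, against 0.0676% of all genes, and DESeq2 called none, against 1.82%. Without adjustment, 5 of the 7 had a p-value under 0.05, against 10.5% of all genes: Cebpa, Cebpd, Cebpe and Cebpg with higher and Cebpz with lower values in KO. In MPP4, edgeR again called none, against 0.0169% of all genes, 2 of 7 had an unadjusted p-value under 0.05 (Cebpa and Cebpg), against 12.8%, and DESeq2 called 1, Cebpg, against 2.58%. The median log2 fold change of the 7 members was 0.68 in MPP3 and 0.38 in MPP4, beside medians of -0.01 and -0.01 over all genes.

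Cebpa was 1.65-fold higher in KO in MPP3 and 1.64-fold higher in MPP4 by the fit, on the values given above, but the groups overlapped. WT mouse 4 stood above KO mice 1 and 4 in MPP3 and above KO mice 1, 2 and 4 in MPP4, where WT mouse 3 also stood above KO mouse 4. On the log2 scale this was 0.72 ± 0.33 in MPP3 (95% interval 0.02 to 1.42, edgeR FDR 0.458) and 0.71 ± 0.33 in MPP4 (0.01 to 1.41, FDR 0.380). Over the alternatives that kept the libraries or left out WT mouse 1, it lay between 0.42 and 0.77 in MPP3 and between 0.41 and 0.81 in MPP4, in each case lowest with age as a term, and the FDR was never below 0.228. With 1 library left out it lay between 0.57 and 1.018 in MPP3 and between 0.52 and 1.11 in MPP4, highest without the library of WT mouse 4 in each (FDR 0.227 and 0.215).

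Cebpe in MPP3 had a log2 fold change of 0.88 ± 0.36 (edgeR FDR 0.399) with the KO library of mouse 1, at 7.82 CPM, below all WT libraries and the other 3 KO libraries, at 24.6 to 34.9 CPM, above them all. Without that library the log2 fold change was 1.17 and the FDR 0.0919. It was lowest, at 0.66 (FDR 0.573), without the KO library of mouse 4, and the FDR was as high as 0.681, without that of WT mouse 1. In MPP4, where Cebpe was near 1 CPM, it was 0.38 ± 0.40 (FDR 0.717). Cebpd differed by 0.68 ± 0.32 on the log2 scale in MPP3 (FDR 0.472) and in MPP4 by 0.09 ± 0.32 (FDR 0.934), there with a sign that turned without WT mouse 1.

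Cebpb differed most between mice of 1 group. In MPP3 it had 0.662, 2.48, 4.62 and 9.59 CPM in WT and 12.7, 12.7, 15.3 and 2.79 CPM in KO. In MPP4 it had 0.684, 1.69, 13.1 and 15.2 CPM in WT and 9.55, 14.1, 30.2 and 2.71 CPM in KO. WT mice 1 and 2 and KO mouse 4, all female, were lowest in both populations, but KO mouse 3, also female, was highest in both. KO exceeded WT by 1.31 ± 0.90 on the log2 scale in MPP3, where edgeR gave an FDR of 0.675, and by 0.87 ± 0.88 in MPP4, where it gave 0.710, and neither step was larger than this spread. With sex as a term the steps were 1.65 (FDR 0.428) and 1.59 (FDR 0.383). With 1 library left out they lay between 0.95, without WT mouse 1, and 2.05, without WT mouse 4, in MPP3 and between 0.19, without KO mouse 3, and 1.44, without WT mouse 4, in MPP4.

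Cebpg was the member nearest to a call in MPP4, where it had 47.9, 41.02, 47.9 and 56.7 CPM in KO, all above the 33.2 to 38.2 CPM of the WT libraries, as were 2.83% of all genes. The log2 fold change was 0.45 ± 0.12 (edgeR FDR 0.179), and the FDR ran from 0.0349 with DESeq2 to 0.381 with age as a term. In MPP3, the KO libraries at 57.8, 53.3, 51.3 and 55.7 CPM overlapped the WT libraries through WT mouse 3 (log2 fold change 0.32 ± 0.12, FDR 0.351). In MPP3, Cebpz had 92.0, 102, 99.5 and 95.01 CPM in WT and 87.3, 79.5, 83.5 and 89.1 CPM in KO, a separation shared by 2.41% of all genes, with a log2 fold change of -0.20 ± 0.09 (FDR 0.458). In MPP4 it had 102, 92.0, 96.6 and 89.7 CPM in WT and 105, 73.3, 90.4 and 94.2 CPM in KO (-0.07 ± 0.09, FDR 0.785). With age as a term the step of Cebpz in MPP3 was -0.10 (FDR 0.880).

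In MPP3, Ddit3 had 23.5, 13.9, 18.8 and 16.4 CPM in WT and 15.3, 17.3, 23.9 and 22.5 CPM in KO. In MPP4 it had 16.3, 17.7, 21.7 and 16.3 CPM in WT and 13.7, 12.5, 24.3 and 16.4 CPM in KO. All 4 groups overlapped. The log2 fold change of KO over WT was 0.12 ± 0.21 in MPP3 (95% interval -0.33 to 0.57) and -0.11 ± 0.21 in MPP4 (-0.56 to 0.34). With age as a term it was 0.51 ± 0.19 in MPP3 (edgeR FDR 0.443) and 0.25 in MPP4.

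Whether the effect of the KO label differed between MPP3 and MPP4 was tested as the interaction. EdgeR called none of the 7 members and 0.0% of all genes, none of the 7 had an unadjusted p-value under 0.05, against 2.28% of all genes, and DESeq2 called none of the 7, against 0.0676% of all genes. The log2 difference of the KO effect, MPP3 minus MPP4, was 0.01 ± 0.46 for Cebpa (95% interval -0.97 to 0.99), 0.44 ± 1.24 for Cebpb, 0.49 ± 0.53 for Cebpe, -0.14 ± 0.17 for Cebpg, -0.13 ± 0.13 for Cebpz and 0.23 ± 0.30 for Ddit3. For each of the 7 members the 95% interval of this difference is wider than the KO effect in either population.

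Markers of other cells and of the gates stood beside these comparisons. In MPP3 the 6 B and plasma cell markers summed to 300 to 1318 CPM in WT and 131 to 331 CPM in KO, with Igkc at 67.6 to 381 CPM in WT and at no more than 61.2 CPM in KO, and the 6 macrophage markers to 28.1 to 40.3 CPM in WT and 39.1 to 66.7 CPM in KO, with Marco at 0 in both. The 6 mast cell and basophil markers summed to 205 to 299 CPM in WT and 199 to 404 CPM in KO, and none of the 5 that were tested was called, with Mcpt8, a basophil protease, at 26.1 to 38.1 CPM in WT and 42.1 to 68.0 CPM in KO without overlap (0.73 ± 0.16, edgeR FDR 0.147). The 6 erythroid markers spanned 17.5 to 57.5 CPM in WT and 14.7 to 31.2 CPM in KO of MPP3. In MPP4 the macrophage markers summed to 35.1 to 37.0 CPM in WT and 35.1 to 58.2 CPM in KO, the B and plasma cell markers to 1089 to 1186 CPM and 1109 to 1294 CPM, nearly all from Ighm, and the erythroid markers to 11.6 to 35.1 CPM and 6.91 to 62.4 CPM. Kit, of the gate, was lower in MPP4 KO, at 381 to 431 CPM, than in MPP4 WT, at 498 to 578 CPM (log2 fold change -0.42 ± 0.07, edgeR FDR 0.0560). Of the gates and without a call, Kit in MPP3 was at 705 to 838 CPM in WT and 644 to 693 CPM in KO, and in MPP4 Flt3 was at 1164 to 1362 and 938 to 1093 CPM and Ly6a, which encodes Sca-1, at 47.3 to 52.1 and 53.5 to 77.9 CPM, each without overlap. Their part in the members' values was not tested.

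The spread between mice allowed the question whether members moved with Cebpa to be put within each population. Cebpb was called in MPP4 and not in MPP3. Over the 8 mice, the Pearson r of log2 CPM between Cebpb and Cebpa was 0.910 in MPP4 (exact permutation p = 0.000719, adjusted p over the 12 relations 0.00863), with a Spearman rank correlation of 0.976 (exact permutation p = 0.000397, adjusted 0.00476). With genotype means removed it was 0.914 (exact permutation p within genotypes 0.00694, adjusted 0.0833). An r as high or higher with Cebpa was found for 0.762% of all genes. Without the 2 libraries farthest from the median of Cebpa, r was 0.733 over 6 mice and was no longer called (adjusted p 0.228), so the call did not hold without those libraries, which also left fewer mice, and without KO mouse 3 alone it was 0.881 (adjusted p 0.188).

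In MPP3 the r of Cebpb with Cebpa was 0.776 (exact permutation p = 0.0230, adjusted 0.138) and the Spearman rank correlation 0.786 (exact permutation p = 0.0279, adjusted 0.168), an r reached by 2.71% of all genes. It was 0.894 without the 2 farthest libraries, 0.958 without WT mouse 3 (adjusted p 0.00714) and 0.650 with genotype means removed. WT mouse 3 had the lowest Cebpa of the MPP3 libraries, but not the lowest Cebpb.

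The other members were not called. Cebpd had an r of 0.674 in MPP3 and 0.634 in MPP4 (exact permutation adjusted p 0.179 for both), and in MPP4 it fell to -0.04 without the 2 farthest libraries. Without WT mouse 3, r of Cebpd with Cebpa in MPP3 was 0.793 and in MPP4 0.784, and both were called (adjusted exact permutation p 0.0899). Cebpe had an r of 0.563 in MPP3 (adjusted exact permutation p 0.297) and -0.02 in MPP4 (0.965), and Cebpg, whose gene is 62720 bases from Cebpa, 0.342 (0.599) and 0.247 (0.734). Ddit3 had an r of -0.09 in MPP3 and -0.03 in MPP4. Cebpz went the opposite way from Cebpa, with an r of -0.726 in MPP3 (adjusted exact permutation p 0.179) and -0.408 in MPP4 (0.583), neither called, and of -0.302 and -0.322 with genotype means removed.

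**Figure D3:**
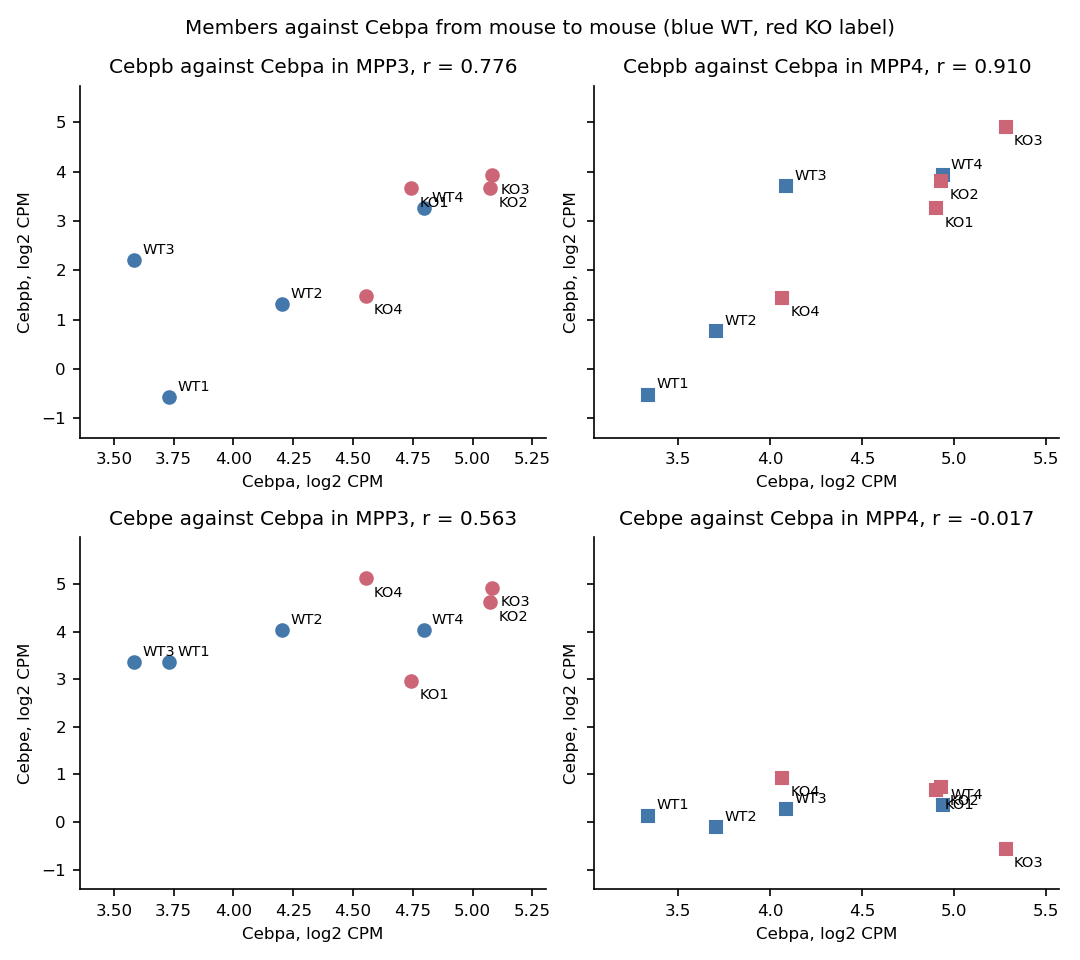
Log2 CPM of Cebpb (upper panels) and Cebpe (lower panels) against log2 CPM of Cebpa in the 8 MPP3 (left) and 8 MPP4 (right) libraries, each labelled by its mouse, blue for WT and red for KO. Cebpb rises with Cebpa (r 0.776 and 0.910), with WT1 lowest for Cebpb and KO3 highest, while Cebpe has an r of 0.563 in MPP3 and stays flat in MPP4.

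**Figure D4:**
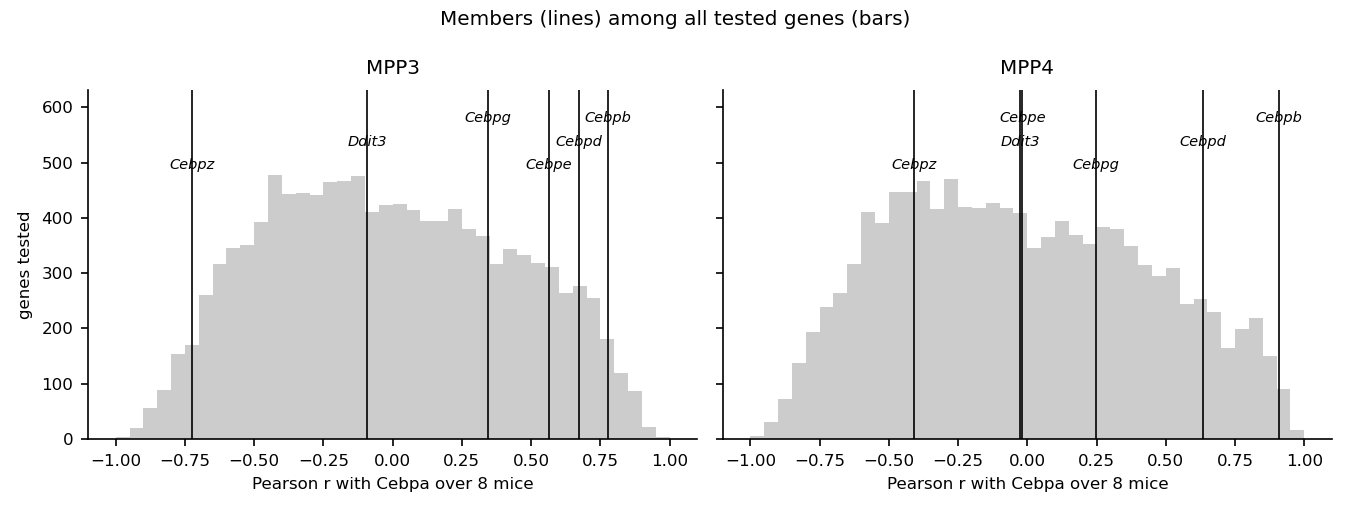
Number of tested genes (grey bars, bins of 0.05) by their Pearson r with Cebpa over the 8 mice of MPP3 (left) and MPP4 (right), with a line for each of the 6 other members. Cebpb stands at the right edge in MPP4 (0.910), Cebpd at 0.674 and 0.634, and Cebpz on the negative side in both.

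The level of a member in MPP3 was also set against its level in MPP4 of the same mouse. These relations were added after the values had been seen, so their p-values are not those of a planned test. Over the 8 mice r was 0.932 for Cebpb (exact permutation p = 0.00129, adjusted over 7 members 0.00903), 0.848 for Cebpa (p = 0.00871, exact permutation, adjusted 0.0305) and 0.747 for Cebpd (p = 0.0264, exact permutation, adjusted 0.0616). The Spearman rank correlation was 0.833 for Cebpb and for Cebpa (adjusted exact permutation p 0.0538) and 0.667 for Cebpd (0.194). Without the 2 mice farthest from the MPP3 median, r was 0.790, 0.929 and 0.355 for Cebpb, Cebpa and Cebpd. For Cebpe it was -0.03, for Cebpg 0.587, for Cebpz 0.472 and for Ddit3 0.426, beside a median of 0.441 over all genes, and r was at least as high as that of Cebpb for 2.46% of all genes, as that of Cebpa for 8.36% and as that of Cebpd for 17.3%. With genotype means removed it was 0.934 for Cebpb, 0.752 for Cebpa (exact permutation p within genotypes 0.0625) and 0.806 for Cebpd, beside a median of 0.401. In the same setting r turned to -0.113 for Cebpg and was -0.221 for Cebpe, 0.481 for Cebpz and 0.509 for Ddit3. The libraries of 1 mouse share the animal, its age and its sex, and cannot be told apart from any handling they also shared.

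**Figure D5:**
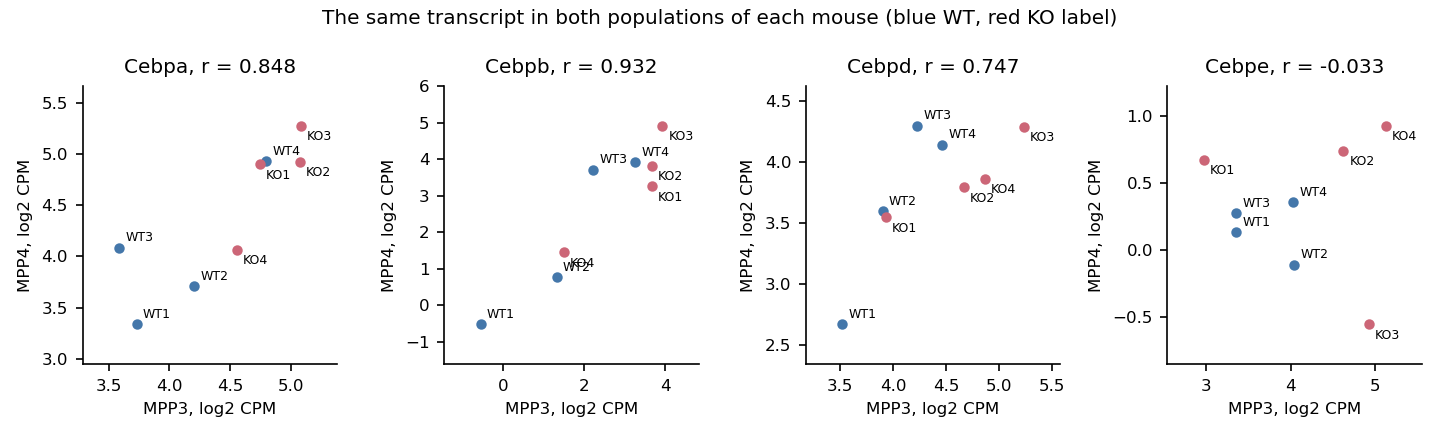
Log2 CPM in MPP4 against log2 CPM in MPP3 of the same mouse for Cebpa, Cebpb, Cebpd and Cebpe, with each mouse labelled, blue for WT and red for KO. The first 3 rise together (r 0.848, 0.932 and 0.747) with WT1 lowest in MPP4, and Cebpe does not (r -0.03).

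Fos, an immediate early gene whose product joins Jun in another bZIP dimer, ran from 12.4 to 1748 CPM over the MPP3 libraries and from 16.5 to 2078 CPM over the MPP4 libraries, in the same order of mice in both (r 0.997 between the populations). The r of Cebpb with Fos was 0.266 in MPP3 and 0.484 in MPP4 and that of Cebpa -0.13 and 0.267, and none of 14 such relations was called (lowest adjusted exact permutation p 0.257, for Ddit3 in MPP4 at r 0.800). Without the 2 libraries farthest from the median of Fos, r was 0.874 and 0.920 for Cebpb and 0.860 and 0.871 for Cebpa. It was 0.639 and 0.819 for Cebpd, 0.277 and -0.524 for Cebpe and 0.202 and -0.105 for Cebpg. For Cebpz it was -0.330 and -0.620, and for Ddit3 -0.0854 and 0.591. These values over fewer mice have no p, and the relations with Fos were not among the planned tests. The part of this signal in the members' levels was not tested.

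Cebpa, Cebpb and Cebpe are rich in GC, at 62.6%, 67.2% and 61.5% of the longest transcript, and 99.2%, 99.9% and 98.6% of tested genes had as little or less. Between libraries, the median log2 deviation of the 591 genes richest in GC stayed between -0.11 and 0.13 in MPP3 and between -0.16 and 0.15 in MPP4. Cebpb deviated by -2.94 to 1.56 in MPP3 and by -3.19 to 2.25 in MPP4, and Cebpa by -0.89 to 0.61 and by -1.07 to 0.87.

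Genes most like Cebpa over all 16 libraries were Sgpp1 (Pearson r 0.902), a sphingosine phosphate phosphatase, Ino80b (0.902), a subunit of a chromatin remodeller, Lrrc59 (0.901), a protein of the endoplasmic reticulum, Prkaca (0.897), the catalytic subunit of protein kinase A, and Cmas (0.893), a sialic acid activating enzyme. Cebpb was number 43 in that order (0.845). Pairs of libraries shared a mouse here, so these values have no p.

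Genes listed as needing the family were counted next, beside medians over all genes of -0.0004 and -0.01 in the population comparisons. Of 14 granulocyte-monocyte genes that depend on C/EBPα, 13 were tested, Klf5 through MPP4 WT alone. In MPP3 against MPP4 of WT, 8 were higher and 2 lower, with a median log2 fold change of 0.37, and in KO 9 were higher and 2 lower, with a median of 0.47. The smallest p-values in WT were those of Ms4a3, a membrane protein of granulocyte-monocyte progenitors (log2 fold change 4.81 ± 0.50, edgeR FDR 5.97e-06), Fcgr3 (3.26 ± 0.37, FDR 1.19e-05), Elane, neutrophil elastase (4.58 ± 0.53, FDR 1.66e-05) and Ctsg, cathepsin G (1.66 ± 0.19, FDR 1.88e-05). In KO they were Ms4a3, Fcgr3, Elane and Prtn3, proteinase 3 (1.25 ± 0.13, FDR 5.5e-06). Over all genes, 6.8% were called higher and 8.33% lower in WT, and 8.71% and 9.18% in KO.

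In KO against WT, none of the 13 was called. In MPP3, 12 of 13 had positive values with a median of 0.67, and the smallest p-value was that of Ctsg, which went from 391 to 714 CPM (log2 fold change 0.87 ± 0.19, edgeR FDR 0.147). In MPP4, 9 of 13 had positive values with a median of 0.26, and Csf1r, the receptor for macrophage colony-stimulating factor, had the smallest p-value, going from 32.3 to 63.7 CPM (0.98 ± 0.20, FDR 0.109).

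Of 12 late granule genes listed as dependent on C/EBPε, 7 passed the filter, 4 of them (Camp, Ngp, S100a8 and S100a9) through MPP3 groups alone. The list therefore gives no count or median between the populations that is free of this choice. Whether these genes depend on it in these progenitors was not tested. By the edgeR test the genes called, both higher in MPP3 in each genotype, were S100a8, a calcium-binding protein of neutrophils, at 12.8 CPM in MPP3 WT and 2.09 CPM in MPP4 WT (log2 fold change 2.60 ± 0.51, edgeR FDR 0.00231), and Cybb, the heavy chain of the phagocyte oxidase, at 6.70 and 1.59 CPM (2.06 ± 0.45, FDR 0.00495). In KO the log2 fold changes were 2.703 ± 0.52 and 2.59 ± 0.45. None was called in KO against WT, and the smallest p-values were those of Cybb in MPP3 (1.43 ± 0.43, FDR 0.242) and of Itgam, the integrin CD11b, in MPP4 (0.55 ± 0.24, FDR 0.352). Between the populations, Itgam and Padi4, which passed the filter in both, were not called in either genotype. Itgam stood at 5.49 CPM in MPP3 WT and 6.53 CPM in MPP4 WT. The call of S100a8, which passed through MPP3 groups alone, is not free of that choice.

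Among 13 other bZIP factors that pair with C/EBP proteins or read related sites, 11 were tested, and in each genotype 1 was higher and 1 lower in MPP3. Of all genes, 15.1% were called in WT and 17.9% in KO. Nfil3, a repressor, stood at 7.15 CPM in MPP3 WT and 25.9 CPM in MPP4 WT (log2 fold change -1.86 ± 0.26, edgeR FDR 9.89e-05), and -1.66 ± 0.26 in KO. Hlf, a factor of stem and progenitor cells, was higher in MPP3, by 0.46 ± 0.16 in WT (FDR 0.0809) and 0.51 ± 0.16 in KO (FDR 0.0415). The median of the list was -0.11 in WT and -0.17 in KO. None was called in KO against WT (median -0.06 in MPP3 and -0.07 in MPP4), where Hlf had the smallest p-value in both populations, at -0.52 ± 0.16 (FDR 0.253) in MPP3 and -0.58 ± 0.16 (FDR 0.179) in MPP4.

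The 6 regulators of C/EBP protein include the ubiquitin ligase COP1, to which the Tribbles pseudokinases TRIB1 and TRIB2 carry C/EBPα for degradation, and a relative of these, Trib3. Trib3 was lower in MPP3 of WT, at 3.78 against 10.9 CPM (log2 fold change -1.52 ± 0.36, edgeR FDR 0.00893), and in KO the 1 called gene was Cop1 (-0.37 ± 0.14, just under the threshold). These calls stand against 15.1% of all genes in WT and 17.9% in KO. The median of the list was -0.09 in WT and -0.18 in KO. None was called in KO against WT (median -0.11 in both populations), and the smallest p-values were those of Fbxw7 in MPP3 (0.38 ± 0.18, FDR 0.485) and Trib2 in MPP4 (-1.21 ± 0.80, FDR 0.542).

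Of 13 transcription factors known at the enhancers of Cebpa, 5 were higher and 1 lower in MPP3 of WT, and 4 higher and 1 lower in KO. Gata2 led, at 173 CPM in MPP3 WT and 49.6 CPM in MPP4 WT (log2 fold change 1.80 ± 0.18, edgeR FDR 3.31e-06), then Ets1 (-1.41 ± 0.20, FDR 0.000103), Meis1 (0.51 ± 0.11, FDR 0.00341) and Fli1 (0.22 ± 0.06, FDR 0.0269), and the same 4 led in KO. Over all genes, 6.8% were called higher and 8.33% lower in WT, against 8.71% and 9.18% in KO. The median of the list was 0.11 in WT and 0.18 in KO. None was called in KO against WT (median -0.06 in MPP3 and -0.11 in MPP4), the smallest p-values being those of Meis1 in MPP3 (-0.30 ± 0.11, FDR 0.319) and Fli1 in MPP4 (-0.20 ± 0.06, FDR 0.198).

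Beside Ddit3, 18 of 22 integrated stress response genes were tested. In WT, 3 were higher and 1 lower in MPP3, led by Trib3, given above, Asns, asparagine synthetase (log2 fold change 0.44 ± 0.12, edgeR FDR 0.0189), Slc3a2, an amino acid transporter chain (0.29 ± 0.10, FDR 0.0649), and Psat1, of serine synthesis (0.21 ± 0.08, FDR 0.0888). In KO, 4 were higher and 1 lower, led by Asns (0.66 ± 0.12, FDR 0.000765), Psat1 (0.34 ± 0.08, FDR 0.00528), Phgdh, also of serine synthesis (-0.36 ± 0.10, FDR 0.0187), and Vldlr, a lipoprotein receptor (0.75 ± 0.22, FDR 0.0348). Among all genes, 15.1% were called in WT and 17.9% in KO. The median of the list was 0.07 in WT and 0.19 in KO. None was called in KO against WT (median 0.04 in MPP3 and -0.05 in MPP4), with the smallest p-values for Eif2ak4, a kinase that senses amino acid shortage, in MPP3 (-0.22 ± 0.12, FDR 0.569) and Vldlr in MPP4 (-0.58 ± 0.22, FDR 0.287).

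Beside Cebpz, all 14 nucleolar ribosome assembly genes were tested. None was called between populations in WT, where Ebna1bp2 had the smallest p-value (0.12 ± 0.06, edgeR FDR 0.215), and Wdr12 was higher in MPP3 of KO (0.20 ± 0.07, FDR 0.0714). Over all genes, 15.1% were called in WT and 17.9% in KO. The median of the list was 0.05 in WT and 0.01 in KO. None was called in KO against WT (median 0.07 in MPP3 and 0.04 in MPP4), where Noc2l had the smallest p-value in both populations, at 0.39 ± 0.17 in MPP3 (FDR 0.430) and 0.71 ± 0.17 in MPP4 (FDR 0.145). In the interaction, no gene of the 7 lists was called by edgeR.

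Genes that overlap members limit how far their counts can be assigned, since the use of strand in counting is not stated. Cebpe overlaps no annotated gene. Cebpa overlaps the antisense gene Gm45091, which had 7 to 73 counts where Cebpa had 385 to 1301, and Cebpb overlaps Tmem189 on the opposite strand, which had 111 to 375 counts where Cebpb had 22 to 815. Cebpd overlaps Spidr, Cebpz overlaps Cebpzos, and Ddit3 overlaps Mars, each on the opposite strand, with 1535 to 3404, 437 to 1039 and 3958 to 7601 counts. The gene of Ddit3 has a further identifier, not analysed here, and overlaps Gm4189, with no more than 26 counts. Cebpg overlaps 3 genes with no more than 26 counts each. Cebpz and Ndufaf7, which encodes an assembly factor of the respiratory chain, start 70 bases apart on opposite strands.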

How the data were processed

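The authors aligned reads to mm10 with STAR 2.7.3a, counted them per gene with featureCounts 2.0.0 and deposited raw counts of each population. A table of values scaled by DESeq2 1.28.1 size factors was not used. The annotation release and the use of strand are not given in the sources used here. Symbols were matched for 47310 of 47937 identifiers, and coordinates taken, from GENCODE on GRCm38 (mm10).

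The 11831 genes whose mean exceeded 100 counts in at least 1 group entered 1 edgeR 4.0.16 fit (R 4.3.3, TMM, quasi-likelihood F-test with legacy deviances, 4 group means, no covariate), with FDR under 0.1 called. The fit was tested on simulated data. Correlations used log2 CPM with a prior count of 0.5 and exact 2-sided permutation over pairings. The chi-square of replicate pairs was 31.2 to 114 per gene, so none was a duplicate. That the replicates are separate mice rests on their labels. Deviations of libraries with the same mouse label correlated at 0.277 to 0.504, each highest with its own number, and the pairing of MPP3 with MPP4 comes from the shared genotype, number, sex and age. Reads carried no molecular identifiers.

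The members, gene lists and tests were chosen with earlier results of these data known. Named from a list were genes called in a comparison, at most 4 with the smallest p, or the 1 with the smallest p, and the 5 genes most like Cebpa and Cebpe.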

Additional observations from a re-analysis of the deposited data

How the results depend on the processing

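Among refits of single member fold changes that kept the libraries or left out WT mouse 1, 328 kept direction and side of the threshold, 8 turned sign, 4 gained and 3 lost a call. With DESeq2, 1 member was called in KO against WT in MPP4 (Cebpg), and with DESeq2, the mouse block or without both libraries of WT mouse 1, 2 were called in MPP3 against MPP4 of WT. With all genes of at least 1 count, filterByExpr or age as a term, 1 was called in MPP3 against MPP4 of KO, where Cebpd had an FDR of 0.148, 0.129 and 0.102. Leaving out 1 library gave 0 to 1 members called in KO against WT in MPP3, and 1 to 2 in either population comparison. The added fit without legacy deviances changed no call of a member. Cebpg in MPP3 against MPP4 of WT was also called without the MPP4 libraries of KO mice 2 and 4 (edgeR FDR 0.0965 and 0.0941).

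The pairing of WT with KO by replicate number was not borne out (r of deviations -0.423 to 0.0198). With that number as a block, 0 members were called in either population, with 29 and 23 genes in all against 8 and 2, and the log2 fold change of Cebpa was 0.77 in MPP3 and 0.81 in MPP4. The mouse block changed no other call of a member than that of Cebpg in WT. Genes called in all in KO against WT were 215 in MPP3 and 305 in MPP4 with DESeq2, 58 and 183 with sex as a term, 1 and 20 in fits of the 8 libraries compared, and 1 and 1 with age as a term. In MPP3, leaving out 1 library gave from 1 gene, without the MPP3 library of WT mouse 2, to 135, without that of WT mouse 3. With age as a term, the KO effect on Cebpa was 0.42 (edgeR FDR 0.832) in MPP3 and 0.41 (FDR 0.818) in MPP4.

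No relation with Cebpa passed without the 2 farthest libraries (0), and 0 to 4 did with 1 mouse left out, the 4 without WT mouse 3 and the 0 without KO mouse 3. The cause was not tested for any of these. Signs turned as follows, for no value that was called with all libraries kept. The Cebpa interaction was -0.0295 with sex as a term. Without WT mouse 1, Cebpa, MPP3 against MPP4 in WT, was -0.0564, Cebpd, KO against WT in MPP4, was -0.15 and Ddit3, MPP3 against MPP4 in WT, was -0.17. With age as a term, Cebpz and Ddit3, KO against WT in MPP4, were 0.0262 and 0.25, and Ddit3, MPP3 against MPP4 in WT, was -0.0024, and -0.0013 with the mouse block. The r with Cebpa turned for Cebpg in MPP3 and MPP4 with genotype means removed (-0.397 and -0.648), for Ddit3 in MPP4 likewise (0.157), and without the 2 farthest libraries for Ddit3 in MPP3 (0.482) and for Cebpd and Cebpg in MPP4 (-0.0417 and -0.0047).

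With 1 library left out, ranges that crossed 0 were -0.39 to 0.31 for the Cebpa interaction, -0.28 to 0.42 and -0.17 to 0.20 for Cebpa in MPP3 against MPP4 of WT and KO, -0.13 to 1.18 for the Cebpb interaction, -0.72 to 0.30 for Cebpb in MPP3 against MPP4 of KO, -0.15 to 0.31, -0.15 to 0.0212 and -0.34 to 0.0083 for Cebpd, Cebpz and Ddit3 in KO against WT in MPP4, and -0.13 to 0.12 for Ddit3 in MPP3 against MPP4 of WT. With 1 mouse left out, r ran from -0.0252 to 0.674 for Cebpg in MPP3, -0.385 to 0.189 for Ddit3 in MPP3, -0.183 to 0.570 for Cebpe in MPP4 and -0.553 to 0.189 for Ddit3 in MPP4. Depth limits Cebpb and Cebpe most, with as few as 22 and 18 counts in a library. Intervals cover the spread of 4 mice a group, with the libraries of a mouse treated as independent.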
